A study of Homo sapiens with 12 samples.

Results

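The genes that license replication origins and build the replication fork were examined across 4 culture conditions of 201B7, an established human iPSC line derived from fibroblasts. The set of 46 genes was chosen by name, with earlier results of these data known. It covers origin licensing, helicase activation, the sliding clamp and its loader and the replicative polymerases. Lagging-strand maturation, nucleotide supply with uracil removal, and chromatin assembly complete it. All 46 were among the 60617 genes of the TPM table (transcript abundance per gene length, scaled so that all libraries have an equal sum), and 44 of them were among the 58575 genes of the count table, where MCM5 and CHAF1B had no row. RNA-Seq was performed on cells of Day 5, with 3 libraries per condition and 12 in all. Cond 1 was the control, kept in ordinary StemFit medium. Cond 2, which the submitters named low nutrient, was grown in StemFit that had first been heated to 56 °C for 30 min. Cond 3 received a differentiation medium of DMEM with 10% FBS, MEM NEAA and GlutaMax. In Cond 4 the cells were suspended at passaging by pipetting 20 times and then kept as in the control. All conditions share this single line, and no genetic change distinguishes them.

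Before S phase, the origin recognition complex (ORC), CDC6 and CDT1 load the ring-shaped MCM2-7 complex onto DNA, a step called licensing, and geminin holds CDT1 back once replication has begun. CDC45 and GINS then turn the MCM ring into the active helicase, and Pol alpha-primase, Pol delta and Pol epsilon copy the strands on the sliding clamp PCNA, which RFC loads. Most of these genes are transcribed around the G1/S transition under E2F factors, and pluripotent stem cells, which have a short G1 phase, are known to express them strongly.

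The totals of the libraries lay between 16441148 and 21871503 counts. The series' design text describes 3 plates with a well of each condition, while the study's text calls the replicates technical, so that the p-values measure the spread between these libraries, which may be technical in part. In bulk RNA, more cells in S phase and more RNA of these genes per cell cannot be told apart. The label gives skin as the tissue, but 7 of 12 skin markers, among them KRT5, KRT14, DCN and LUM, stayed under 1 TPM in every library. The other skin markers were expressed, with COL1A1 at a mean of 246 TPM, THY1 at 141, COL1A2 at 47, KRT10 at 42.5 and PDGFRB at 7.97 TPM in Cond 1. COL1A1 and COL1A2 were higher in Cond 3, at 436 and 110 TPM, and THY1 was lower there, at 48.9 TPM, while all 3 were called lower in Cond 2. The 12 pluripotent markers summed to between 6261 and 7941 TPM. Their defining member POU5F1 was at a mean of 1.32 TPM in Cond 1, where SOX2 had 908 TPM, and the cause of that low value was not tested. NANOG had 45.9 ± 1.93 TPM in Cond 1 (mean ± SD, n = 3), 22.9 ± 2.37 in Cond 2, 10.5 ± 0.759 in Cond 3, and 46.6 ± 1.82 TPM was measured in Cond 4. The 9 neuroectoderm markers summed to 348 to 403 TPM in Cond 1 and in Cond 4. Their sum was 782 to 1103 TPM in Cond 2 and 519 to 546 in Cond 3. Outside Cond 2 most of it was NES, with means of 341, 323, 468 and 342 TPM in Cond 1 to Cond 4. PAX6 and SOX1 were under 1 TPM on average throughout. Of 7 tested, 5 were called higher in Cond 2 and 3 in Cond 3, and in Cond 2 LHX5 went from 7.93 ± 3.2 to 262 ± 65.4 TPM, HESX1 from 17 ± 1.19 to 172 ± 33.8 and SIX3 from 2.39 ± 1.68 to 158 ± 50.4 TPM. The sum of 10 surface ectoderm markers was 363 to 422 TPM in Cond 1, 284 to 333 in Cond 2, 200 to 218 in Cond 3 and 316 to 385 in Cond 4, and most of it was KRT18, with means of 356, 248, 183 and 322 TPM. KRT18 and GABRP were called lower in Cond 2, but the other 7 of the 9 tested were called higher, among them DLX5, from 0.0694 ± 0.12 to 13.7 ± 11.2 TPM, and GATA3, from 0.268 ± 0.117 to 7.46 ± 4.2 TPM. In Cond 3, 3 were called higher and 2 lower. The 8 mesendoderm markers together had at most 4.81 TPM. Of 2 tested, TBXT was called higher in Cond 3, from 0.0806 ± 0.14 to 1.12 ± 0.382 TPM. Whether the cells carrying these markers contributed to the values of the replication genes was not tested.

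All 46 replication genes were at 1 TPM or more in every library, and the 44 with counts all passed the filter on low counts, with no fewer than 173 reads in any library (POLA2). In Cond 1 their mean levels ran from 6.87 ± 0.105 TPM for POLA2, the accessory subunit of Pol alpha, to 510 ± 11.8 TPM for MCM3, with a median of 89.6 TPM. There were 19 genes at 100 TPM or more, and 3 under 20 TPM, which were POLA2, MCM8 and GINS3. The spread within Cond 1 was small, with a median coefficient of variation of 5.13%. The deposited gene length exceeded that of the canonical transcript by 2.81 times for RRM2 and 2.67 times for ORC6, so that the TPM of these genes reads low against the others. On the canonical length, ORC6 would stand at 240 TPM in Cond 1 in place of 89.8 TPM, and MCM7 at 751 TPM would exceed MCM3 at 606 TPM. Values on the canonical length, here and below, were converted for each gene alone, without scaling the library back to an equal sum. They are therefore comparable with each other and not with the deposited TPM. The kit kept strand, but the strand setting of the counting is not given, and 23.6% of the exon bases of MCM2, 23.4% of GINS4 and 14.5% of DUT lie opposite another annotated gene.

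Subunits that act in equal numbers within a complex were present at unequal RNA levels. Among the 6 subunits of the MCM ring, MCM3 and MCM7 had 510 ± 11.8 and 423 ± 7.37 TPM in Cond 1, whereas MCM2 had 144 ± 1.94 TPM and MCM5 166 ± 1.01 TPM. Within GINS, a complex of 4 proteins, GINS1 stood at 93.1 ± 5.15 TPM and GINS3 at 10.0 ± 0.415 TPM. On the canonical length GINS1 would stand at 116 TPM and GINS3 at 23.3 TPM, a smaller gap. Within Pol alpha-primase, POLA1 had 52.8 ± 3.8 TPM, PRIM1 32.2 ± 1.64 TPM and POLA2 6.87 ± 0.105 TPM. PRIM2, its subunit outside the set, had 42 ± 1.55 TPM. On the canonical length POLA1 would stand at 61 TPM, PRIM1 at 55.5 TPM and POLA2 at 10.8 TPM, so that POLA1 and PRIM1 lay close and POLA2 remained low. Of these, POLA2 and PRIM1 share 20.7% and 21% of their 31-base words with other annotated genes, and so does MCM8 with 36.3%, so the counts of these genes are uncertain. PCNA was at 488 ± 37.3 TPM, above each of the 5 RFC subunits, which ran from 51.2 ± 4.89 TPM (RFC5) to 145 ± 4.46 TPM (RFC4). On the canonical length RFC4 would stand at 318 TPM and PCNA at 536 TPM.

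**Figure D1:**
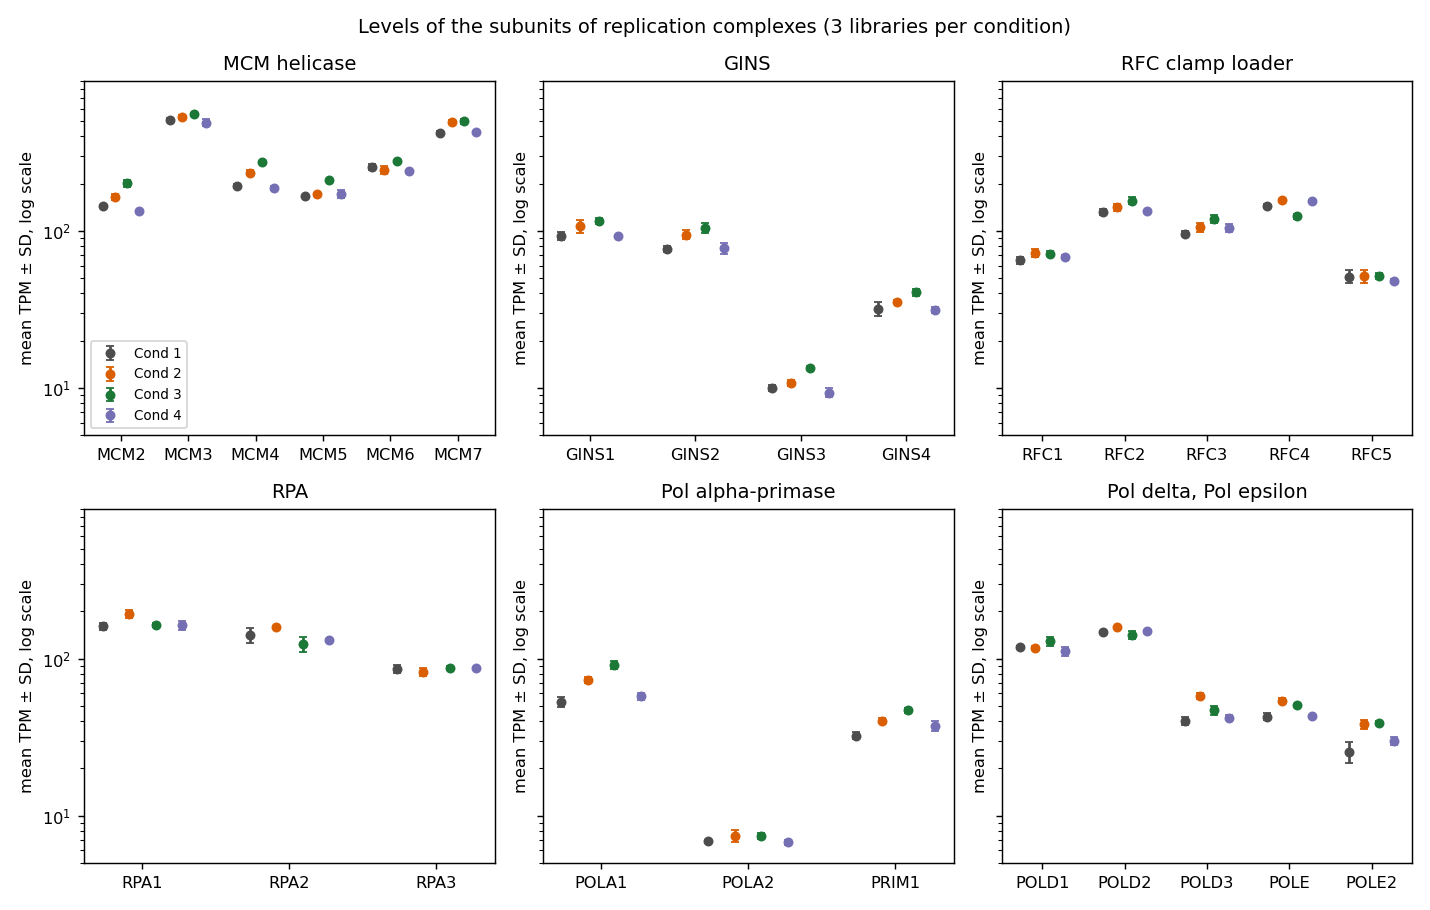
Mean TPM on a log scale for the subunits of 6 replication complexes, with bars for the SD of 3 libraries and colours for Cond 1 to Cond 4. MCM3 and MCM7 lie highest in the MCM ring, GINS3 and POLA2 lowest in their complexes, and most subunits are highest in Cond 3.

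The levels summed over all 46 genes were 5602 to 5938 TPM in the libraries of Cond 1, 6284 to 6556 in Cond 2, 6877 to 7061 in Cond 3, while Cond 4 had 5580 to 5781 TPM. The libraries of Cond 1 and Cond 4 overlapped, while those of Cond 2 and Cond 3 lay above them and did not overlap each other. The mean TPM was highest in Cond 3 for 33 genes, in Cond 2 for 12 and in Cond 4 for RPA3, and it was highest in Cond 1 for 0 genes. The MCM2 to MCM7 sum went from 1691 ± 26.4 TPM in Cond 1 to 1846 ± 31.8 in Cond 2 and 2023 ± 24.9 in Cond 3, and was 1647 ± 41.1 in Cond 4. The RPA sum was instead highest in Cond 2, with 388 ± 26.3, 434 ± 13.6, 375 ± 19.3 and 381 ± 11.3 TPM in Cond 1 to Cond 4. TPM of Cond 2 carries a shift that is not particular to these genes. Genes without a count row, including the mitochondrial ones, took 7.6% to 13.2% of the TPM in Cond 2 and 12.3% to 16.8% in Cond 1, and the median gene was 0.087 higher in Cond 2 on the log2(TPM + 1) scale. Tests therefore rest on the counts, normalized by TMM, on which that median was 0.00018.

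Promoter sequences are shown for the genes with the largest changes, because shared letters near the start are a feature that the choice of genes did not use. Of the 46 genes, 40 had a RefSeq promoter of 300 bases, from 250 before to 50 after the transcript start (GRCh38.p14). Letters typical of E2F sites (TTTCCCGC, TTTGGCGC or TTTCGCGC, either strand) occurred in 18 of the 40, or 45%, against 2.79% of all 27305 promoters. The letters CCAAT, the box of NF-Y, occurred in 23, or 57.5%, against 35.7% of all. TTTGAA, the letters of the CHR element of mitotic genes, occurred in 1 (RRM1), or 2.5%, against 15.4% of all. The stretches below are the 250 bases before the start in the direction of transcription, with E2F-type letters and CCAAT boxes of either strand in capitals; that of POLE2 runs 3 bases past the start to hold a whole match. They lie at chrX:24693668-24693917 (POLA1, plus strand), chr14:49688212-49688464 (POLE2, minus strand), chr11:4094435-4094684 (RRM1, plus strand), chr2:10122489-10122738 (RRM2, plus strand), chr15:48330845-48331094 (DUT, plus strand), chr11:61792661-61792910 (FEN1, plus strand) and chr2:135876444-135876693 (MCM6, minus strand).
POLA1: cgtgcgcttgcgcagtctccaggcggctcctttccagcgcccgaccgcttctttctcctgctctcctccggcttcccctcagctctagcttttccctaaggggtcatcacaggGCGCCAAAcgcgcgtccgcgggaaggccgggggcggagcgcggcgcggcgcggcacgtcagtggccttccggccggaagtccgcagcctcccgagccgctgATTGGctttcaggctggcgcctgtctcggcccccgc
POLE2: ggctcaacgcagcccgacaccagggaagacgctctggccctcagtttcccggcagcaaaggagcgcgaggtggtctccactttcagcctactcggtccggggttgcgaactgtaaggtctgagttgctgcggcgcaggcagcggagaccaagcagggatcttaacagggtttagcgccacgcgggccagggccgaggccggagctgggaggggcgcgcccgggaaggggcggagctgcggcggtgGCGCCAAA
RRM1: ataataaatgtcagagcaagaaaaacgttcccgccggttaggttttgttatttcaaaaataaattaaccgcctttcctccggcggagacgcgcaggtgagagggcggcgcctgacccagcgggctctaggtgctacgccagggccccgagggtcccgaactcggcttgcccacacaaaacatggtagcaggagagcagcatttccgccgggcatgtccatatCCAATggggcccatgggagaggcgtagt
RRM2: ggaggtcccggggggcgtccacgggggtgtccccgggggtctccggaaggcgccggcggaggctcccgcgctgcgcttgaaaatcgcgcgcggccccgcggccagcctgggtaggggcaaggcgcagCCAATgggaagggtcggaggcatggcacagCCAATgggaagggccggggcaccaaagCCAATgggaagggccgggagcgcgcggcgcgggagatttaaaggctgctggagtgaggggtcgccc
DUT: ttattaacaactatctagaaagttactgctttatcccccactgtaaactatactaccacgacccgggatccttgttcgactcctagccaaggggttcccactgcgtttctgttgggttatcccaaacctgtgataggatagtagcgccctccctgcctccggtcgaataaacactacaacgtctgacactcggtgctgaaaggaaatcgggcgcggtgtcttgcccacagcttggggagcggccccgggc
FEN1: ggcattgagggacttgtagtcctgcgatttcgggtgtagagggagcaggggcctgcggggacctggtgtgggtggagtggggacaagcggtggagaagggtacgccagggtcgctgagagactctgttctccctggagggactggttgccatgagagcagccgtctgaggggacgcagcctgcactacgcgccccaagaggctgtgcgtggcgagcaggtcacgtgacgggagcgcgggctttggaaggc
MCM6: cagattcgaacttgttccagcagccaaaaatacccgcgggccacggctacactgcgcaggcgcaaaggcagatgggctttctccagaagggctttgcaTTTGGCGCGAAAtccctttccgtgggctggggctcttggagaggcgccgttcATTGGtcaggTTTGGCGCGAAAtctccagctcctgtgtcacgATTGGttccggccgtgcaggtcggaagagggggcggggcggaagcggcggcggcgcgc
MCM6, added after its matches were seen, held the most E2F-type matches of any of the promoters, 4 in 2 places, since TTTGGCGC and TTTCGCGC overlap there on opposite strands. POLA1 and POLE2 each held 1 match, RRM2 held 3 CCAAT boxes and no E2F-type letters, and DUT and FEN1 held neither in this window. A match is only a match of letters, and its absence says nothing about a factor.

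**Figure D2:**
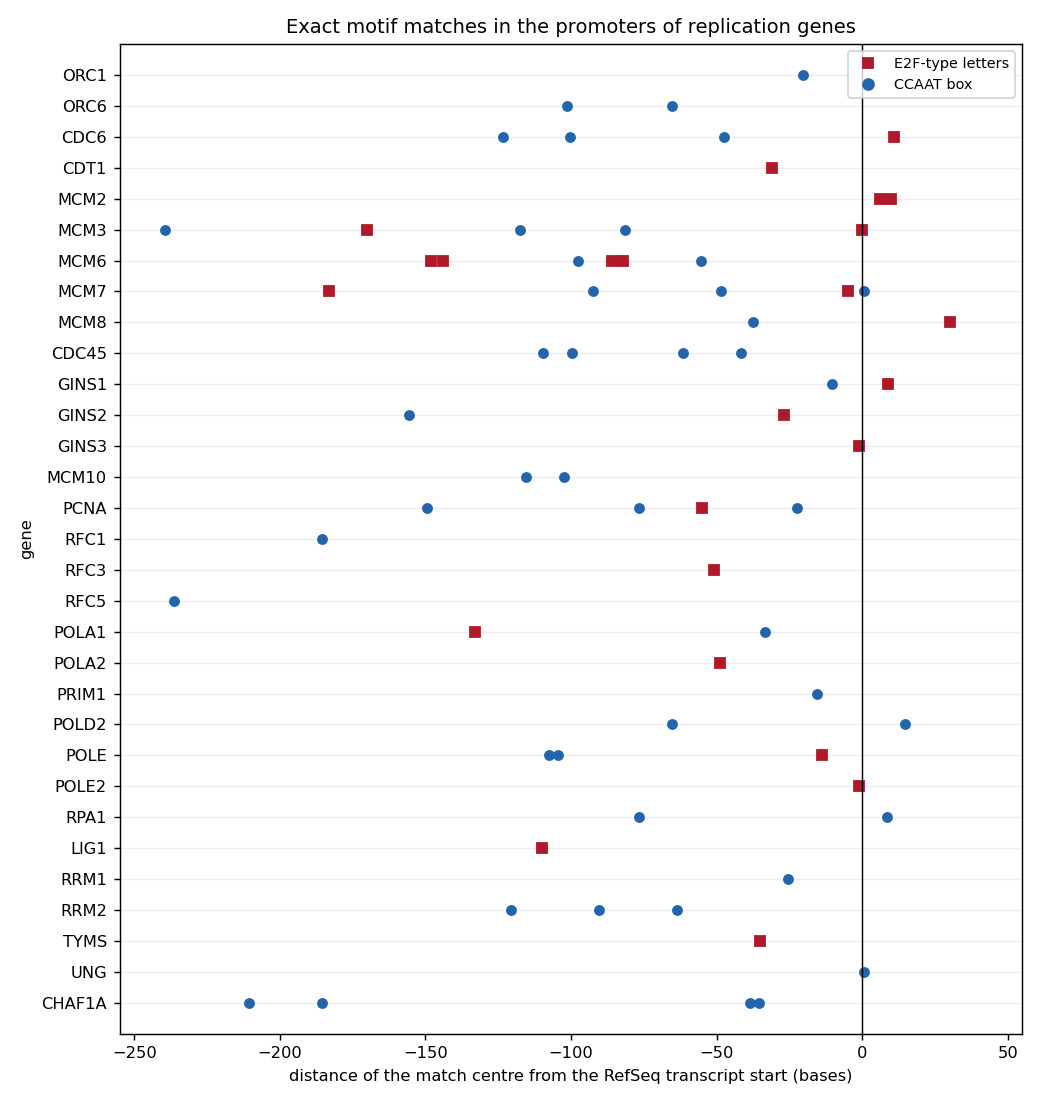
Exact matches of E2F-type letters (red squares) and of the CCAAT box (blue circles) in the promoters of the replication genes that hold any, by distance of the match centre from the RefSeq transcript start in bases. E2F-type letters are present in 18 of 40 promoters, from upstream of the start to just inside the transcript.

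Culture in the differentiation medium (Cond 3) was compared with the control to see how far the replication genes followed the change of medium. Most of them rose, by less than 2-fold. Of the 44 genes tested, 29 were higher and 3 lower (edgeR's quasi-likelihood test, adjusted p under 0.05), where 19.5% of all 17747 genes tested were higher and 18.8% lower. Their median log2 fold change was 0.29 and that of all genes -0.0064. None of the 44 passed a 2-fold change, against 8.16% of all genes. Among the 9601 genes at least as abundant as the lowest of the 44, 24.5% were higher and 26.1% lower. In TPM, 36 of 46 genes had all 3 libraries of Cond 3 above all of Cond 1 and 2 had all below, against 26.6% and 22% of all genes. Because the genes were chosen with earlier results known, these shares and those of the comparisons below describe the set. They do not test it against all genes.

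Licensing genes rose in 7 of 11 cases, and 1 fell. The 11 include MCM8, which is not a subunit of the MCM2-7 ring. It had a log2 fold change of 0.24 and did not pass the test (adjusted p = 0.12, edgeR). Gene positions given here are those of GENCODE 44 on GRCh38. MCM4, a helicase subunit, was at 187, 197 and 197 TPM in the libraries of Cond 1 and at 273, 280 and 276 TPM in Cond 3. The conditions did not overlap, and the log2 fold change was 0.49 ± 0.0472 (± SE; adjusted p = 3.02e-08, edgeR). The other genes that rose were MCM2 (0.46), ORC1 (0.41), CDT1 (0.34), CDC6 (0.33), GMNN (0.32), which encodes the CDT1 inhibitor geminin, and MCM7 (0.22), all as log2 fold changes. The MCM ring did not move evenly: MCM3 and MCM6 had log2 fold changes of 0.10 ± 0.0466 and 0.10 ± 0.0491 and did not pass the test (adjusted p = 0.105 and 0.13, edgeR). MCM5, without counts, was 165 to 167 TPM in Cond 1 and 210 to 212 in Cond 3, with a log2 difference of 0.34 ± 0.0468 (adjusted p = 9.85e-05, limma on log2(TPM + 1)). ORC6 (ENSG00000091651, chr16:46689643-46698394), the smallest ORC subunit, went the other way, with 88.6, 89.2 and 91.5 TPM in Cond 1 and 79.4, 72.8 and 74.7 TPM in Cond 3. Its libraries did not overlap, and it fell by 0.28 ± 0.0574 on the log2 scale (adjusted p = 5.43e-04, edgeR). Of the ORC genes outside the set, ORC3 was lower too, with -0.24, and ORC2 was higher, with 0.18 (adjusted p = 0.00691 and 0.0435, edgeR). ORC4 (-0.10) and ORC5 (-0.25) did not pass the test.

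In helicase activation every tested gene rose, 6 of 6. GINS2 was at 73.3, 80.2 and 75.7 TPM in Cond 1 and at 112, 97.2 and 104 TPM in Cond 3, up by 0.43 ± 0.0725 on the log2 scale (adjusted p = 6.13e-05, edgeR). No library of Cond 3 was as low as any of Cond 1. MCM10 (0.41), GINS3 (0.39), GINS4 (0.32), GINS1 (0.30) and CDC45 (0.26) rose by log2 fold changes of similar size.

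The clamp and its loader were split. PCNA was at 471, 530 and 462 TPM in Cond 1 and at 695, 661 and 696 TPM in Cond 3, without overlap (log2 fold change 0.46 ± 0.0567, adjusted p = 9.31e-07, edgeR). RFC3 (0.28) and RFC2 (0.21) rose, and RFC1 (0.11 ± 0.0591) and RFC5 (-0.00 ± 0.0845) did not pass the test. RFC4 was at 147, 140 and 148 TPM in Cond 1 and at 119, 125 and 128 TPM in Cond 3. It was lower in every library and fell by 0.25 ± 0.0572 on the log2 scale (adjusted p = 0.00117, edgeR), so that the RFC sum of 490 ± 11.3 TPM in Cond 1 and 522 ± 10.2 TPM in Cond 3 held members of both directions.

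Among polymerases and primase 5 of 8 rose. POLA1 (ENSG00000101868, chrX:24693873-24996986), the catalytic subunit of Pol alpha, had 52.1, 49.5 and 56.9 TPM in Cond 1 and 85.9, 96.5 and 90.4 TPM in Cond 3. With 0.75 ± 0.0662 on the log2 scale, or 1.69-fold, it was the largest change of the set in this comparison (adjusted p = 6.23e-09, edgeR). POLE2, an accessory subunit of Pol epsilon, went from 26, 29.3 and 21.3 TPM to 38.3, 40.2 and 38.4 TPM (log2 fold change 0.59 ± 0.104, adjusted p = 9.91e-05, edgeR). Both genes were separated between the conditions. PRIM1, which makes the RNA primers, rose by 0.51 ± 0.0925 on the log2 scale, with the uncertainty of its shared words. POLE (0.21) and POLD3 (0.20) rose less, and POLA2, POLD1 and POLD2 did not pass the test, with log2 fold changes of 0.08, 0.09 and -0.09.

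Single-strand binding and Okazaki maturation genes were split as well, with 2 higher and 1 lower of 5. FEN1 (ENSG00000168496, chr11:61792911-61797238), the nuclease that removes primer flaps, was at 141, 135 and 130 TPM in Cond 1 and at 226, 232 and 223 TPM in Cond 3, a log2 fold change of 0.72 ± 0.0569 (adjusted p = 1.34e-09, edgeR), without overlap. FEN1 shares 9.44% of its words with other genes, mainly its pseudogene FEN1P1. LIG1, the ligase that seals the fragments, rose by 0.40 ± 0.062. None of the 3 subunits of RPA, which coats single-stranded DNA, rose, as RPA1 and RPA3 had log2 fold changes of -0.00 ± 0.0566 and -0.01 ± 0.0619. RPA2, which shares 8.01% of its words with other genes, mainly its pseudogene RPA2P2, was at 129, 158 and 135 TPM in Cond 1. In Cond 3 it was at 133, 109 and 131 TPM. The libraries overlapped, and although it fell by 0.20 ± 0.0796 on the log2 scale (adjusted p = 0.0459, edgeR), the call was lost without control replicate 2 (adjusted p = 0.274), control replicate 3 (0.0645) or differentiation replicate 2 (0.283).

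Nucleotide genes held several of the largest increases. DUT (ENSG00000128951, chr15:48331011-48343373), the enzyme that destroys dUTP and so keeps uracil out of DNA, had 88.4, 97.2 and 82.7 TPM in Cond 1 and 151, 153 and 156 TPM in Cond 3. Every library of Cond 3 exceeded every library of the other 3 conditions, and the log2 fold change was 0.75 ± 0.0623 (adjusted p = 2.65e-09, edgeR). RRM1 and RRM2, the subunits of ribonucleotide reductase, moved from 75, 93.7 and 83.7 TPM to 132, 144 and 130 TPM and from 55.2, 60.5 and 55.5 TPM to 89.5, 85.9 and 85.9 TPM. Both genes were separated between the conditions, and the log2 fold changes were 0.66 ± 0.0695 and 0.58 ± 0.0527 (adjusted p = 1.01e-07 and 1.02e-08, edgeR). TK1, the thymidine kinase of S phase, rose by 0.43. TYMS, which makes dTMP, had 0.18 ± 0.0844 and did not pass the test (adjusted p = 0.105, edgeR), and 47.9% of its exons lie opposite other genes, mostly ENOSF1. UNG, the glycosylase that cuts uracil out of DNA, was at 393, 423 and 385 TPM in Cond 1 and 420, 375 and 394 TPM in Cond 3, overlapping fully, with -0.04 ± 0.0523.

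Chromatin assembly and histone mRNA genes rose, 2 of 2 tested. SLBP, which binds the stem-loop of histone mRNA, was at 113, 125 and 101 TPM in Cond 1 and at 151, 137 and 145 TPM in Cond 3, without overlap (log2 fold change 0.32 ± 0.079, adjusted p = 0.00227, edgeR). CHAF1A, a subunit of the CAF-1 histone chaperone, rose by 0.18, and its partner CHAF1B, without counts, went from 23.4 to 25.9 TPM in Cond 1 to 26.8 to 31.8 TPM in Cond 3 (log2 difference 0.27 ± 0.0784, adjusted p = 0.0166, limma on log2(TPM + 1)). Among the genes in the test that had a promoter entry, 13 of 18 with E2F-type letters were higher in Cond 3, and 13 of 21 without them.

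**Figure D3:**
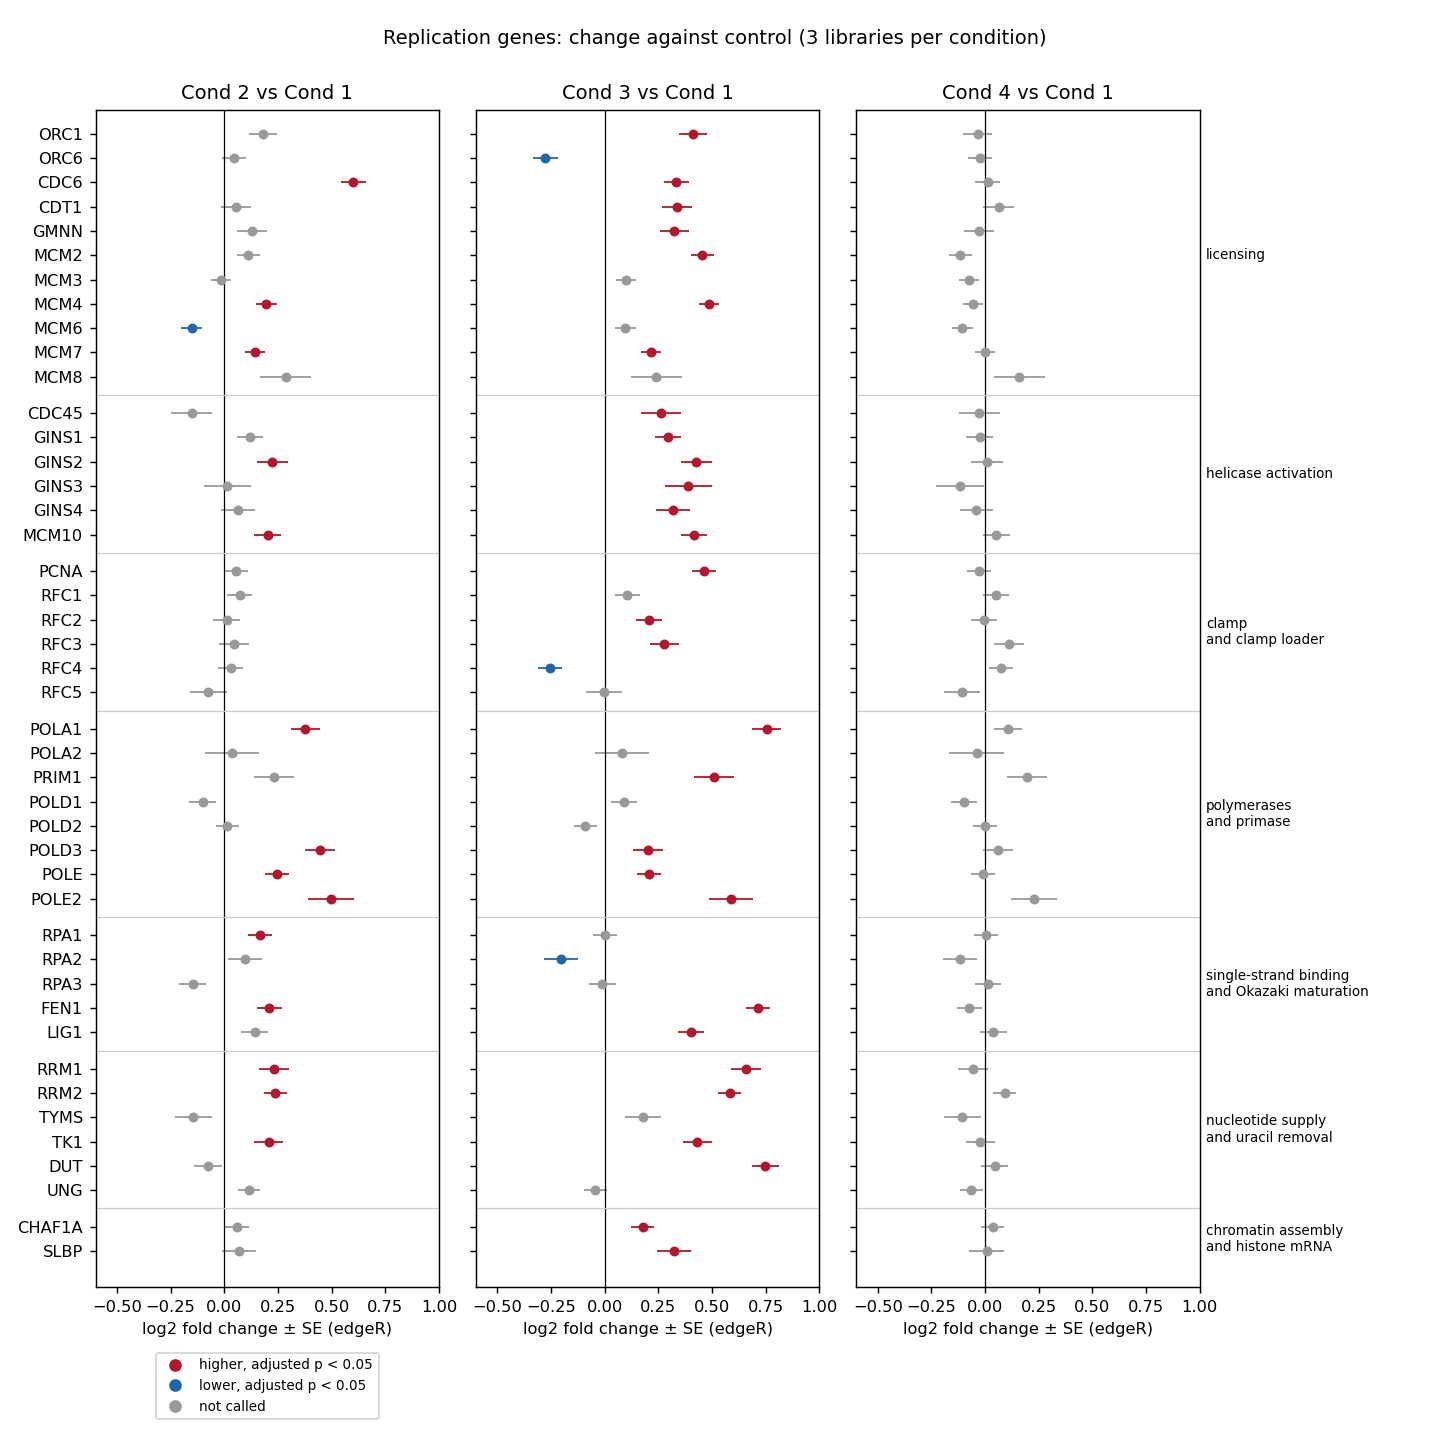
Log2 fold change against Cond 1 with its standard error (horizontal axis, edgeR, 3 libraries per condition) for the 44 replication genes with counts, by role, with genes called higher in red and lower in blue. There are 29 higher and 3 lower genes in Cond 3, 14 higher and 1 lower in Cond 2, and 0 in Cond 4.

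In heated medium (Cond 2) fewer replication genes rose, and others led. Of 44 tested, 14 were higher and 1 lower than in Cond 1 (edgeR, adjusted p under 0.05), against 10.8% and 10.1% of all genes, and the median log2 fold change was 0.10 against 0.00018 for all genes. Again 0 of the 44 passed 2-fold, against 4.34% of all genes. Among the 9601 genes at least as abundant, 16% were higher and 12.7% lower. The count of 14 fell to 9 without control replicate 1 and to 9 without low-nutrient replicate 2. In TPM, 26 of 46 genes had all libraries of Cond 2 above all of Cond 1 and 0 had all below, against 24.4% and 11.2% of all genes, with the shift in TPM given above.

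CDC6 (ENSG00000094804, chr17:40287879-40304657), the ATPase that loads the MCM ring together with ORC, led this comparison. It had 78.7, 81 and 85.1 TPM in Cond 1 and 123, 138 and 133 TPM in Cond 2. These were also above all libraries of Cond 3 and Cond 4, and the log2 fold change was 0.60 ± 0.0587, or 1.52-fold (adjusted p = 6.19e-08, edgeR). The other loading factors did not pass the test, with log2 fold changes of 0.18 ± 0.0656 for ORC1, 0.04 ± 0.0571 for ORC6 and 0.05 ± 0.0718 for CDT1. ORC1 was close to the threshold (adjusted p = 0.053, edgeR) and was called higher with DESeq2 (adjusted p = 0.0412). In TPM its libraries of Cond 2 lay above all of Cond 1. In the MCM ring, MCM4 (0.20) and MCM7 (0.14) rose, while MCM6 had 263, 262 and 243 TPM in Cond 1 and 231, 247 and 256 TPM in Cond 2. Its libraries overlapped in TPM, and the test on counts gave a fall of 0.15 ± 0.0493 on the log2 scale (adjusted p = 0.0316, edgeR). That call was lost without control replicate 1 (adjusted p = 0.107), control replicate 2 (0.0818), low-nutrient replicate 1 (0.0955) or low-nutrient replicate 2 (0.0863).

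The polymerases supplied 4 of the 14 increases. POLE2 was at 26, 29.3 and 21.3 TPM in Cond 1 and at 38.7, 40.3 and 35.2 TPM in Cond 2, up by 0.50 ± 0.105 on the log2 scale (adjusted p = 0.00115, edgeR). POLD3, an accessory subunit of Pol delta, had 42.3, 37.5 and 40.1 TPM in Cond 1 and 56.1, 61.1 and 56.2 TPM in Cond 2 (0.44 ± 0.069, adjusted p = 3.99e-05, edgeR). POLA1 reached 69.5, 72.9 and 76.6 TPM, up by 0.38 ± 0.0665 on the log2 scale (adjusted p = 1.82e-04, edgeR). POLE, the catalytic subunit of the leading-strand polymerase, went from 43, 40.3 and 45 TPM to 55, 55 and 51.5 TPM (0.25 ± 0.0556, adjusted p = 0.00231, edgeR). All 4 genes were separated from the control in every library. The catalytic subunit of Pol delta, POLD1, had -0.10 ± 0.0623 and did not pass the test.

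In nucleotide supply, RRM2 was at 68.5, 74 and 71.9 TPM in Cond 2, above its 3 libraries of Cond 1, and rose by 0.24 ± 0.0529 on the log2 scale (adjusted p = 0.00191, edgeR). RRM1 (0.23) and TK1 (0.21) rose as well. DUT, which rose most after POLA1 in Cond 3, was at 89, 93.8 and 87 TPM in Cond 2 and overlapped with Cond 1 (-0.08 ± 0.0632, adjusted p = 0.45, edgeR). The remaining increases were GINS2 (0.22), MCM10 (0.20), FEN1 (0.21) and RPA1 (0.17). PCNA and the 5 RFC genes gave 0 calls, with PCNA at 0.05 ± 0.0569 and the RFC genes between -0.07 and 0.07 on the log2 scale, and CHAF1A and SLBP also did not pass the test. MCM5 and CHAF1B, tested on TPM only, had log2 differences of 0.04 and 0.05 (adjusted p = 0.581 and 0.669, limma).

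**Figure D4:**
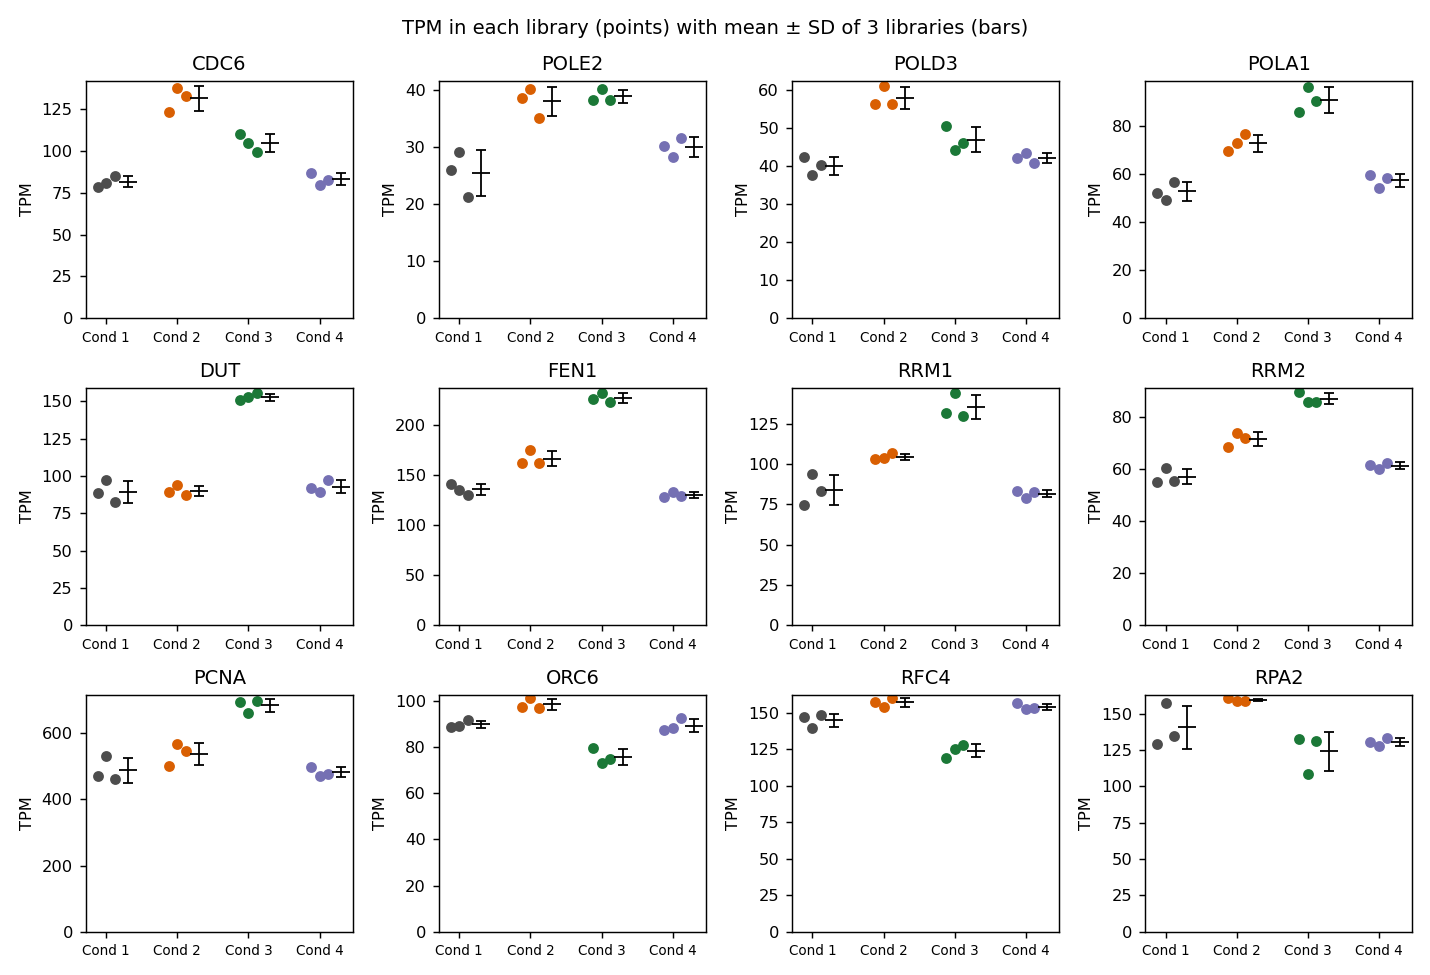
TPM of 12 replication genes in each of the 12 libraries (points, coloured by condition) with the mean and SD of 3 libraries beside them, on axes that start at 0. CDC6 and POLD3 are highest in Cond 2, DUT, FEN1, RRM1, RRM2, POLA1 and PCNA in Cond 3, and ORC6, RFC4 and RPA2 are lowest on average in Cond 3.

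By the study's text, the heated medium was given from an earlier day than the FBS. Medium and length of exposure therefore cannot be told apart. Under that limit, a direct comparison of Cond 3 with Cond 2 was made. It gave 26 genes higher in Cond 3 and 7 lower of the 44 (edgeR, adjusted p under 0.05), against 19% and 19.2% of all genes, with 0 past 2-fold against 8.77% of all genes and a median log2 fold change of 0.20. Among the 9601 genes at least as abundant, 21.9% were higher and 28.2% lower. DUT differed most, by 0.82 ± 0.0624 or 1.77-fold (adjusted p = 5.56e-10, edgeR). FEN1 (0.51 ± 0.0565), RRM1 (0.43 ± 0.069), PCNA (0.41 ± 0.0566) and CDC45 (0.41 ± 0.0936) followed. CDC45 was at 49, 42.2 and 45.1 TPM in Cond 2 and at 56.6, 61.5 and 56.4 TPM in Cond 3, and GINS3 at 11, 11 and 10.3 TPM and at 13, 13.3 and 13.9 TPM (0.38 ± 0.108, adjusted p = 0.00804, edgeR). Both helicase genes were separated between the media.

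Of the 7 genes lower in Cond 3 than in Cond 2, ORC6 had fallen in Cond 3 and reached 97.3, 101 and 96.6 TPM in Cond 2, a difference of -0.32 ± 0.0573 (adjusted p = 1.12e-04, edgeR). RPA2, with 161, 159 and 159 TPM in Cond 2, and RFC4, with 157, 154 and 160 TPM, were lower in Cond 3 by log2 differences of -0.30 ± 0.0793 and -0.28 ± 0.0572 (adjusted p = 0.00425 and 4.01e-04, edgeR). CDC6 was at 111, 105 and 99.4 TPM in Cond 3, below its level in Cond 2 (-0.27 ± 0.0581, adjusted p = 8.58e-04, edgeR), as was POLD3 with 50.4, 44.1 and 46.1 TPM (-0.24 ± 0.0683, adjusted p = 0.00665, edgeR). CDC6 and POLD3 thus exceeded the control in both media, and the heated medium exceeded the differentiation medium. RPA1 was at 180, 196 and 201 TPM in Cond 2 and at 169, 161 and 163 TPM in Cond 3 (-0.17 ± 0.0564, adjusted p = 0.0225, edgeR). That call was lost when low-nutrient replicate 2, low-nutrient replicate 3, differentiation replicate 2 or differentiation replicate 3 was left out, with adjusted p of 0.063, 0.08, 0.0771 and 0.0621. UNG was also lower in Cond 3, by a log2 difference of -0.16, at 442, 463 and 476 TPM in Cond 2.

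Pipetting at passaging (Cond 4) left no detectable change in these genes. Of the 44, 0 were higher and 0 lower than in Cond 1 with edgeR, with DESeq2 and with limma on TPM, against 0.0225% and 0.00563% of all genes with edgeR, and 0 passed 2-fold, against 0.0169%. At an unadjusted p under 0.05, 3 of the 44 would pass, POLE2, MCM6 and MCM2, where 6.21% of all genes would. POLE2 had the smallest p, with 30.3, 28.2 and 31.7 TPM in Cond 4 overlapping 26, 29.3 and 21.3 TPM in Cond 1 (log2 fold change 0.23 ± 0.106, adjusted p = 0.801, edgeR). The standard errors ran from 0.046 for MCM7 to 0.128 for POLA2 on the log2 scale, which limits what 3 libraries could detect. In TPM, 2 of 46 genes had all libraries above Cond 1 and 2 had all below, against 6.75% and 5.12% of all genes.

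Genes that work beside the 46 were counted from lists chosen by function, and their counts are to be read against the shares of all genes called, which were 19.5% higher and 18.8% lower in Cond 3 and 10.8% higher and 10.1% lower in Cond 2. In Cond 3, 4 of 13 other origin and firing factors were higher and 2 lower, with a median log2 difference of -0.03, and in Cond 2 the counts were 2 and 0 and the median was 0.06. The 2 of 13 in Cond 2 and the 2 lower in Cond 3, MTBP and ORC3, lay near the shares of all genes. CDC7, the kinase that starts firing, rose in Cond 2 by 0.34 ± 0.0669, and MTBP, which acts with treslin in firing, fell in Cond 3 by 0.67 ± 0.114 on the log2 scale (adjusted p = 5.71e-04 and 5.85e-05, edgeR). Of 18 other fork proteins, 7 were higher in Cond 3 and 6 in Cond 2, with 0 lower in either and medians of 0.13 and 0.18. CLSPN, a fork-associated mediator of checkpoint signals, rose in both, by 0.56 ± 0.0777 in Cond 3 and 0.41 ± 0.078 in Cond 2 (adjusted p = 5.23e-06 and 3.91e-04, edgeR).

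Of 10 other nucleotide enzymes, 4 were higher and 4 lower in Cond 3, against 19.5% and 18.8% of all genes. In Cond 2, 0 were higher and 1 lower, the latter near the 10.1% of all genes. RRM2B, the ribonucleotide reductase subunit that p53 induces, had 55.2 ± 4.6 TPM in Cond 1 and 35.2 ± 4.26 TPM in Cond 2. It fell there by 0.73 ± 0.0847 on the log2 scale (adjusted p = 7.10e-07, edgeR). RRM2B was lower in Cond 3 too, at 36.9 ± 4.07 TPM (log2 fold change -0.61, adjusted p = 4.54e-06, edgeR). TK2, the mitochondrial thymidine kinase, fell in Cond 3 by 0.89 ± 0.147 (adjusted p = 4.25e-05, edgeR). Of 8 other genes of chromatin replication, 4 were higher in Cond 3, against 19.5% of all genes, and 1 in Cond 2, near the share of 10.8%. UHRF1, which brings the maintenance methyltransferase to new DNA, went from 41.3 ± 3.5 TPM in Cond 1 to 61.8 ± 0.646 in Cond 2 and 147 ± 10.3 in Cond 3, by 0.50 ± 0.0688 and 1.80 ± 0.0685 on the log2 scale (adjusted p = 9.76e-06 and 7.11e-15, edgeR), and its change in Cond 3 was larger than that of any of the 44 replication genes.

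Genes of the cell cycle outside replication were counted in the same way. Of 21 genes that control G1/S, 10 were higher and 1 lower in Cond 3, with a median of 0.13, and 8 and 0 in Cond 2, with a median of 0.11. CCNE1, the cyclin of CDK2 at S phase entry, went from 53 ± 5.65 to 108 ± 5.79 TPM in Cond 3 (1.00 ± 0.0852, adjusted p = 3.78e-09, edgeR), and E2F7, a repressor among the E2F factors, rose in Cond 2 by 0.42 ± 0.0963 (adjusted p = 0.00248, edgeR). Of 19 mitosis genes, 11 were higher and 0 lower in Cond 3, with a median of 0.22. In Cond 2, 2 were higher and 1 lower, of which the 2 lay near the share of 10.8%. MKI67, the proliferation marker, rose in Cond 3 by 0.70 ± 0.0737, and CENPF, a kinetochore protein, in Cond 2 by 0.36 ± 0.0599 (adjusted p = 9.65e-08 and 1.04e-04, edgeR). CENPF rose in Cond 3 too, by 0.48 (adjusted p = 1.13e-06, edgeR). In Cond 4, 0 genes of these 6 lists were called. Whether the share of cycling cells differed between conditions was not tested.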

How the data were processed

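Poly(A) RNA of 12 libraries was sequenced with a directional kit. According to the submitters' processing notes, reads were processed with bcl2fastq 2.20.0.422, cutadapt 4.1, fastp 0.20.1, HISAT2 2.1.0 and featureCounts on GRCh38. The authors deposited read counts per gene, not normalized, and TPM, which are these counts per gene length scaled to equal totals. How strand and multiply matching reads were counted was not given in the sources used here. Among the count lines, 5 incomplete ones were left out, and 2042 genes of the TPM table have no count row; these, including MCM5 and CHAF1B, were tested on TPM only.

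Counts were filtered with filterByExpr, normalized by TMM and tested with edgeR 4.0.16 (R 4.3.3) in one quasi-likelihood fit of 12 libraries. P-values were adjusted by Benjamini-Hochberg over 17747 genes, with a threshold of 0.05. The SE of an edgeR log2 fold change was derived from the test, as its absolute value divided by the square root of the F statistic. Alternatives were DESeq2 1.42.0, upper-quartile normalization, no low-count filter, limma 3.58.1 on log2(TPM + 1) or log2(TPM + 0.1), with genes at 1 TPM in all libraries or without that filter, the 6 libraries alone, the replicate number as a block, and each library left out. Limma on TPM rescaled to counted genes was added after seeing the data. The genes and lists were chosen with earlier results of these data known. Per-library values were printed for up to 6 called increases and 6 decreases per comparison, the largest change of each role in Cond 3, and, where none was called, the smallest p. From each neighbouring list the called gene with the largest change was named. Markers, UNG, MCM5, CHAF1B, TYMS, POLD1, PRIM1, MCM8, PRIM2, ORC2 to ORC5 and the promoter of MCM6 were named outside this rule. Canonical transcript lengths, overlaps and words of 31 bases came from GENCODE 44.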

Additional observations from a re-analysis of the deposited data

How the results depend on the processing

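In Cond 2 against Cond 1 the count of 14 genes called higher became 9 with the 6 libraries alone and 22 with limma on log2(TPM + 1) and on log2(TPM + 0.1), the scale on which the median of all genes was shifted upward; limma on TPM rescaled to counted genes gave 17. Leaving out a library gave 9 to 14. The single lower call, MCM6, became 0 with the 6 libraries alone, with no low-count filter and with the 3 limma settings on full TPM, 2 with the rescaled TPM, and 0 to 1 with a library left out. In Cond 3 against Cond 2 the 26 higher calls became 16 with limma without the TPM filter. Leaving out a library gave 27 to 30 higher and 2 to 3 lower calls in Cond 3 against Cond 1, 21 to 24 higher and 5 to 7 lower in Cond 3 against Cond 2, and 0 in Cond 4; the other causes were not tested. Of 495 repeats for single named genes, 472 kept direction and side of the threshold, 23 kept the direction but not the call (MCM6, RPA2 or RPA1), and 0 reversed. Deviations of same-numbered libraries were at most weakly correlated (-0.0131 to 0.0379 over 18 pairs). Pairs of other numbers ran from -0.0693 to 0.0607, and 7 of 12 libraries were closest to their own number. These values do not settle whether the numbers mark a pairing, so the numbers entered only as an alternative block. With the replicate block, RPA2 in Cond 3 lost its call (log2 fold change -0.206, adjusted p = 0.0526, edgeR), and the counts of higher calls stayed at 14 in Cond 2 and 29 in Cond 3. With 3 libraries per condition, small changes of low genes such as POLA2 were not detectable.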
